A study of Mus musculus with 4 samples.

Results

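The nuclear-encoded genes of the mitochondrial respiratory chain and ATP synthase were examined in T follicular helper (Tfh) cells, the helpers of the germinal centre, and in non-Tfh cells of the same immune response. Members were chosen by gene name alone: mouse symbols that begin with Nduf, Uqcr, Cox and a digit, or Atp5, together with Sdha, Sdhb, Sdhc and Sdhd, leaving out symbols marked as pseudogenes by -ps. Of the 39179 gene identifiers counted, 114 matched the names, 7 of these were left out as -ps, and 107 were members. They were 102 protein-coding genes and 5 processed pseudogenes whose symbols look like those of genes.

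T cells with the ovalbumin-specific transgenic receptor of the OT-II strain were placed in C57BL/6 hosts that then received nitrophenol-coupled ovalbumin under the skin. On day 8 Thy-1.1+ donor cells of pooled inguinal nodes were separated by flow cytometry into CD44hi CXCR5+ PD-1+ Tfh cells and CXCR5- PD-1- non-Tfh cells, so both groups were OT-II cells after the same immunisation and no unimmunised or host cells were compared. Total RNA was sequenced in 2 libraries of each kind, with the numbers T32 and T53, and the labels do not say what the numbers mark. P-values therefore measure the spread between these libraries, which may be technical. In bulk RNA, fewer cells with a transcript and less transcript per cell cannot be told apart.

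The respiratory chain moves electrons from NADH and succinate to oxygen. Complex I (NADH dehydrogenase, the Nduf genes) and complex II (succinate dehydrogenase, the Sdh genes) feed electrons into coenzyme Q, complex III (the Uqcr genes) passes them to cytochrome c, and complex IV (cytochrome c oxidase, the Cox genes) reduces oxygen. The proton gradient built on the way drives ATP synthase (the Atp5 genes). Some subunits of complexes I, III, IV and of ATP synthase are encoded in the mitochondrial genome, and the nuclear-encoded subunits must be made in step with them. T cells enlarge this machinery after activation.

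The libraries held 12354113 (Tfh T32), 5725358 (Tfh T53), 13360563 (non-Tfh T32) and 8636056 (non-Tfh T53) gene counts. The members took 0.471% and 0.442% of the counts in the Tfh libraries, against 0.484% and 0.399% in the non-Tfh libraries, and mitochondrially encoded genes took 22.2% and 20.4% against 19.6% and 17.2%. Of 7 T cell markers 0 passed the edgeR test, 6 had fitted changes above 0, and 1, Cd5, had 169 and 172 CPM in Tfh libraries against 217 and 220 CPM in non-Tfh libraries (unadjusted p = 0.0144 in the edgeR test). Cd3e stood at 249.3 and 279 CPM (counts scaled to library size with the trimmed mean of M-values, TMM) in Tfh libraries and at 209 and 231 CPM in non-Tfh libraries, and of the 2 CD8 genes Cd8a had 0 counts in both Tfh libraries and 2 and 0 in the non-Tfh libraries, while Cd8b1 had 74 and 22 counts against 56 and 32. A list of 8 B cell markers summed to 145 and 141 CPM in Tfh libraries, against 11.4 and 18.8 CPM in non-Tfh libraries. The 2 genes of this list with enough counts to be tested, Cd22 and Pax5, both passed as higher in Tfh cells. Cd22 had 140 and 135 CPM in Tfh libraries, against 9.62 and 14.9 CPM in non-Tfh libraries, and Pax5 had 61 and 30 counts against 0 and 4. Of the untested markers, the B cell receptor component Cd79a had 1 and 0 counts in the Tfh libraries and 3 and 6 counts in the non-Tfh libraries. Of 2 tested NK cell markers, Klrb1c passed as higher in Tfh cells, with 532 and 328 counts against 265 and 110. The other, Eomes, passed as lower, with 2 and 2 counts in Tfh libraries against 27 and 13. Of 3 tested macrophage and monocyte markers, Itgam passed as lower, with 2 and 3 counts in Tfh libraries against 29 and 18. The part of these differences in the results on the members was not tested.

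Of the 107 members, 94 had enough counts to be tested and 1 passed the test, the copper chaperone gene Cox17, which was higher in Tfh cells. Over the 11702 genes tested, 8.49% passed (edgeR quasi-likelihood test, adjusted p under 0.05 over all genes tested), 4.47% higher and 4.02% lower, so the share among the tested members was 1.06%. At an unadjusted p under 0.05, 4 members were higher (4.26%) and 0 lower, against 11.5% higher and 10.5% lower of all genes tested. The 4 were Cox17, Ndufs6, Cox8a and Uqcr10. DESeq2 and limma-voom also called Cox17 and 0 members lower. No member had a fitted change of 2-fold or more, against 9.98% of all genes tested, and 2 members, Cox17 and Ndufs6, reached 1.5-fold, against 19.8%. The 95% interval of the change lay within 2-fold in both directions for 89 of the 94 tested members (94.7%), against 67.2% of all genes tested. The 5 other members, whose intervals reached past 2-fold, were Cox17, Ndufs6, Ndufaf8, Cox14 and Atp5s.

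The small differences lay mostly on the higher side. The fitted log2 fold change was above 0 for 78 of 94 members (83.0%), against 49.3% of all genes tested, and its median was 0.14 among members, against -0.0053 over all genes tested. Both Tfh libraries lay above both non-Tfh libraries for 25 members (26.6%), against 26.6% of all genes tested, and below both for 6 members (6.38%), against 25.6%. For the other 63 members the groups overlapped. How many members lay above 0 differed with the libraries compared. Tfh T32 was above non-Tfh T32 for 60 members, with a median log2 ratio of 0.07, against -0.0082 over all genes tested. Tfh T53 was above non-Tfh T53 for 80 members, with a median of 0.22, against -0.00088 over all genes tested. Of the members, 56 were higher in both and 10 lower in both. The shares of all genes for these counts are not given here. Without non-Tfh T53 the fit put 47 of 94 members above 0, with a median of -0.0035. Of all genes tested in that fit 49.9% were above 0, with a median of -0.0015. The class medians without that library were 0.06 for complex I accessory subunits, 0.0027 for complex I assembly, -0.14 for complex II, -0.07 for complex III, 0.02 for complex IV subunits, 0.04 for complex IV assembly, -0.02 for ATP synthase F1 and -0.06 for Fo and stalk. Without Tfh T32, 59 members were above 0 with a median of 0.06, against 49.1% of all genes tested, and the Fo and stalk median was -0.02. The complex I core median was 0.07 without Tfh T53 and 0.06 without non-Tfh T32.

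**Figure D1:**
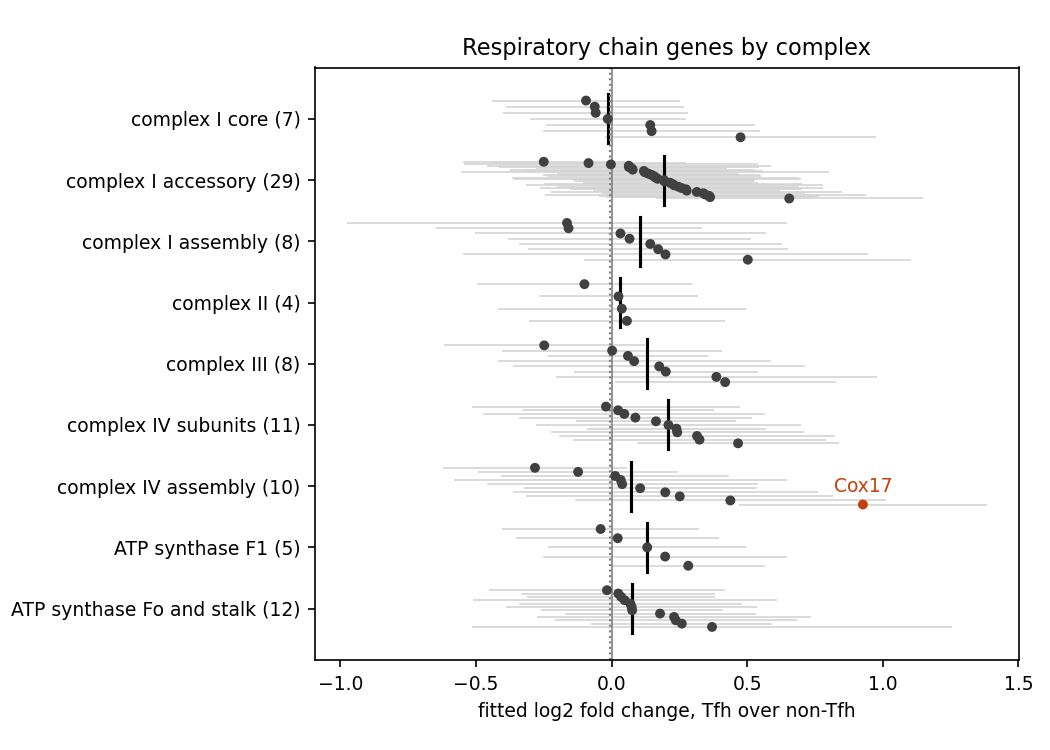
Fitted log2 fold change of Tfh over non-Tfh cells (x axis) for the 94 tested members, 1 point each, in rows by complex with the number of members in brackets. Grey lines are 95% intervals, black bars are medians of the rows, the solid grey line marks 0 and the dotted line the median of all genes tested; Cox17, in orange, is the member that passed the test, and the median of the complex I core row lies at -0.014 while that of complex IV subunits lies at 0.21.

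Summed over all members, the level was 4884 and 4428 CPM in Tfh libraries T32 and T53, against 4822 and 3883 CPM in non-Tfh libraries T32 and T53. The 2 groups overlapped in this sum, and non-Tfh T53 was the lowest library. Non-Tfh T53 was also the lowest library in the sum of each of the 9 classes of tested members. In each of these classes T53 lay below T32 in the Tfh group as well. Between libraries of the same number, Tfh over non-Tfh was 1.01-fold (T32) and 1.14-fold (T53) for the sum over all members. The sums of complex I accessory subunits were 862 and 770 CPM in Tfh libraries and 799 and 653 CPM in non-Tfh libraries, and those of complex IV subunits were 703 and 617 CPM against 656 and 500.3 CPM. For ATP synthase F1, non-Tfh T32 was the highest library: the sums were 1134 and 1065 CPM in Tfh libraries and 1196 and 950.3 CPM in non-Tfh libraries.

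**Figure D2:**
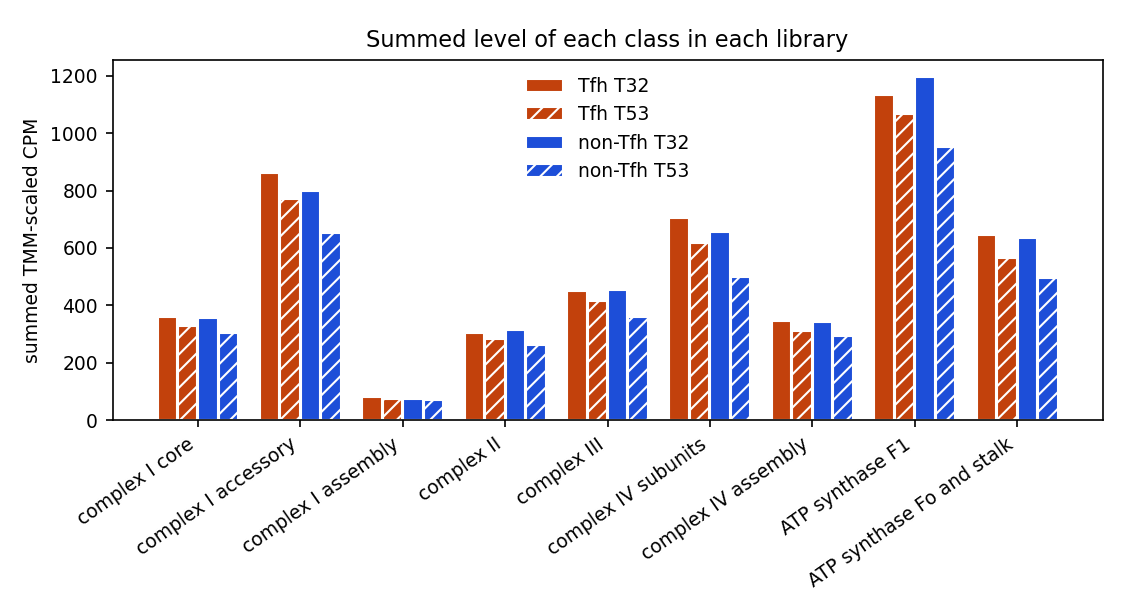
Summed TMM-scaled CPM (y axis) of the members of each class (x axis), with 1 bar per library; orange bars are Tfh and blue bars non-Tfh libraries, plain for T32 and hatched for T53. In each class the bar of non-Tfh T53 is the lowest of the 4, and the highest is non-Tfh T32 for complex II, complex III and ATP synthase F1 and Tfh T32 for the others.

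Complex I starts the chain. Its 7 core subunits, which carry the flavin and the iron-sulfur clusters, had 3 fitted changes above 0 and 4 below, with a median of -0.014 and a range of -0.09 to 0.48 on the log2 scale. The top of this range was Ndufs8, an iron-sulfur subunit next to the coenzyme Q site, with 30.4 and 29.9 CPM in Tfh libraries and 25.7 and 17.4 CPM in non-Tfh libraries. The groups did not overlap, but the change did not pass the test (log2 fold change 0.48 ± 0.21 SE, edgeR adjusted p = 0.246). Ndufs3, an abundant core member, had a mean of 34.7 CPM per kilobase of transcript over all libraries. It had 41.4 and 34.8 CPM in Tfh libraries and 38.0 and 30.8 CPM in non-Tfh libraries, so its groups overlapped (log2 fold change 0.15 ± 0.17 SE).

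The 29 accessory subunits of complex I, which surround the core and are needed for its assembly and stability, had 26 fitted changes above 0 and 3 below, with a median of 0.19. Ndufs6, a zinc-binding accessory subunit, had 22.3 and 21.7 CPM in Tfh libraries and 16.2 and 11.6 CPM in non-Tfh libraries. Its means were 22.0 ± 0.44 CPM in Tfh and 13.9 ± 3.25 CPM in non-Tfh libraries (SD, n = 2 each), a log2 fold change of 0.66 ± 0.20 (SE; 95% interval 0.16 to 1.15) that did not pass the edgeR test (adjusted p = 0.117). Ndufs6 lies at chr13:73319838-73328542 (GRCm38) and overlaps Mrpl36 on the opposite strand, and how strand entered the counting is not given in the sources used here. At the other end Ndufa10 had 42.4 and 43.0 CPM in Tfh libraries, against 53.02 and 48.4 CPM in non-Tfh libraries. Its groups did not overlap either, and the log2 fold change was -0.25 ± 0.12 (SE; 95% interval -0.55 to 0.05; edgeR adjusted p = 0.311). Per kilobase the most abundant accessory subunits were Ndufb7, with a mean of 71.8 CPM per kb, and Ndufa7, with 61.4 CPM per kb. Neither passed the test, with log2 fold changes of 0.19 ± 0.14 and 0.23 ± 0.20 (SE).

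The 8 complex I assembly factors, which help build the complex and are not part of the finished enzyme, were expressed at a median of 6.18 CPM per kb, against 30.5 CPM per kb for core and 31.1 CPM per kb for accessory subunits. Fitted changes were above 0 for 6 and below for 2. Ndufaf8 had 10.2 and 8.39 CPM in Tfh libraries and 5.89 and 7.43 CPM in non-Tfh libraries, a log2 fold change of 0.50 ± 0.25 (SE) with an edgeR adjusted p of 0.313. Ndufaf7, a methyltransferase that acts during assembly, had 9.31 and 9.79 CPM in Tfh libraries and 10.1 and 11.3 CPM in non-Tfh libraries, a log2 fold change of -0.16 ± 0.20 (SE). Ndufaf1 was at 13.3 and 12.6 CPM in Tfh libraries and 13.0 and 10.5 CPM in non-Tfh libraries. The groups overlapped for Ndufaf1 and were apart by less than 1.5-fold for the 2 others.

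Complex II, which is also an enzyme of the tricarboxylic acid (TCA) cycle and is wholly nuclear-encoded, showed the narrowest range, with log2 fold changes of -0.10 to 0.06 over its 4 genes and overlapping groups for each. Sdha, the flavoprotein that oxidises succinate, had 170.2 and 158 CPM in Tfh libraries and 171 and 151 CPM in non-Tfh libraries. Its log2 fold change was 0.03 ± 0.12 (SE), with a 95% interval of -0.27 to 0.32. Sdhb, the iron-sulfur subunit, had 56.3 and 59.5 CPM in Tfh libraries and 62.0 and 49.0 CPM in non-Tfh libraries, with a log2 fold change of 0.06 ± 0.15 (SE).

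Of the 8 complex III members, 7 had fitted changes above 0, with a median of 0.13. Uqcr10, a small subunit of the complex, had 38.3 and 35.5 CPM in Tfh libraries and 31.1 and 24.0 CPM in non-Tfh libraries. The log2 fold change was 0.42 ± 0.17 (SE; 95% interval 0.01 to 0.83), which did not pass the edgeR test (adjusted p = 0.215). Uqcrfs1, the Rieske iron-sulfur protein that takes electrons from coenzyme Q, had the opposite order, with 46.3 and 41.6 CPM in Tfh libraries and 58.0 and 46.5 CPM in non-Tfh libraries. Its lowest non-Tfh and highest Tfh libraries lay close together, and its log2 fold change was -0.25 ± 0.15 (SE; edgeR adjusted p = 0.428). Uqcrh, the hinge protein that binds cytochrome c1, was the most abundant member of complex III per kilobase, with a mean of 162 CPM per kb, and had overlapping groups.

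Among the 11 complex IV subunits 10 had fitted changes above 0, with a median of 0.21 and a range of -0.02 to 0.47. Cox8a, the common isoform of a small membrane subunit (chr19:7215153-7217616), had 95.5 and 84.1 CPM in Tfh libraries and 72.8 and 57.2 CPM in non-Tfh libraries. Means were 89.8 ± 8.02 CPM in Tfh and 65.0 ± 11.04 CPM in non-Tfh libraries (SD, n = 2 each), and the log2 fold change of 0.47 ± 0.15 (SE; 95% interval 0.09 to 0.84) did not pass the edgeR test (adjusted p = 0.134). Cox4i1, the regulatory subunit and the most abundant of complex IV at 153 CPM per kb, had 123 and 114 CPM in Tfh libraries and 130.2 and 103 CPM in non-Tfh libraries. Its groups overlapped, with a log2 fold change of 0.02 ± 0.15 (SE).

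Cox17 carries copper to the proteins that load it into complex IV and is counted here among 10 genes for the assembly of complex IV and its joining to other complexes. It had 71.8 and 58.6 CPM in Tfh libraries and 39.5 and 29.0 CPM in non-Tfh libraries, from 856 and 335 counts against 530 and 258 counts. Both Tfh libraries lay well above both non-Tfh libraries. The means were 65.2 ± 9.35 CPM in Tfh and 34.3 ± 7.41 CPM in non-Tfh libraries (SD, n = 2 each), 1.90-fold higher in Tfh cells, with a log2 fold change of 0.93 ± 0.19 (SE; 95% interval 0.47 to 1.38; edgeR adjusted p = 0.0347). The call was lost without Tfh T32 (log2 fold change 0.77, adjusted p = 0.123) and without non-Tfh T53 (0.73, adjusted p = 0.0509).

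Cox17 lies at chr16:38346991-38352763 (GRCm38), with a principal transcript of 3690 bases. Gm21987 overlaps it on the same strand, shares sequence with it and had 1 count in the 4 libraries together. Gm21987 spans chr16:38347040-38362297, and so reaches past the start of Popdc2 at 38362209 on the same strand. How reads in the shared sequence were counted was not tested. The next genes on both sides also had higher levels in both Tfh libraries. Popdc2, 9446 bases away, had 29.0 and 21.5 CPM in Tfh libraries and 9.77 and 3.71 CPM in non-Tfh libraries, with a log2 fold change of 1.87 ± 0.44 (SE; edgeR adjusted p = 0.0667). Maats1, 4848 bases away, had 8.14 and 5.95 CPM in Tfh libraries and 4.85 and 1.69 CPM in non-Tfh libraries (log2 fold change 1.08 ± 0.49 SE; edgeR adjusted p = 0.273). Neither neighbour passed the test, and their part in the counts of Cox17 was not tested.

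The other complex IV assembly genes stayed closer together. Cox7a2l, a factor that joins complexes III and IV into supercomplexes, had the lowest fitted change of the tested members, with 139.8 and 118 CPM in Tfh libraries and 169 and 145 CPM in non-Tfh libraries. The groups did not overlap, and the log2 fold change of -0.28 ± 0.14 (SE; 95% interval -0.62 to 0.06) did not pass the edgeR test (adjusted p = 0.312). Cox10, which makes the heme A precursor of complex IV, had 19.7 and 20.5 CPM in Tfh libraries and 20.8 and 23.0 CPM in non-Tfh libraries, with a log2 fold change of -0.12 ± 0.15 (SE). Cox20, a chaperone for the mitochondrially encoded subunit Cox2, had overlapping groups and a log2 fold change of 0.11 ± 0.18 (SE).

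**Figure D3:**
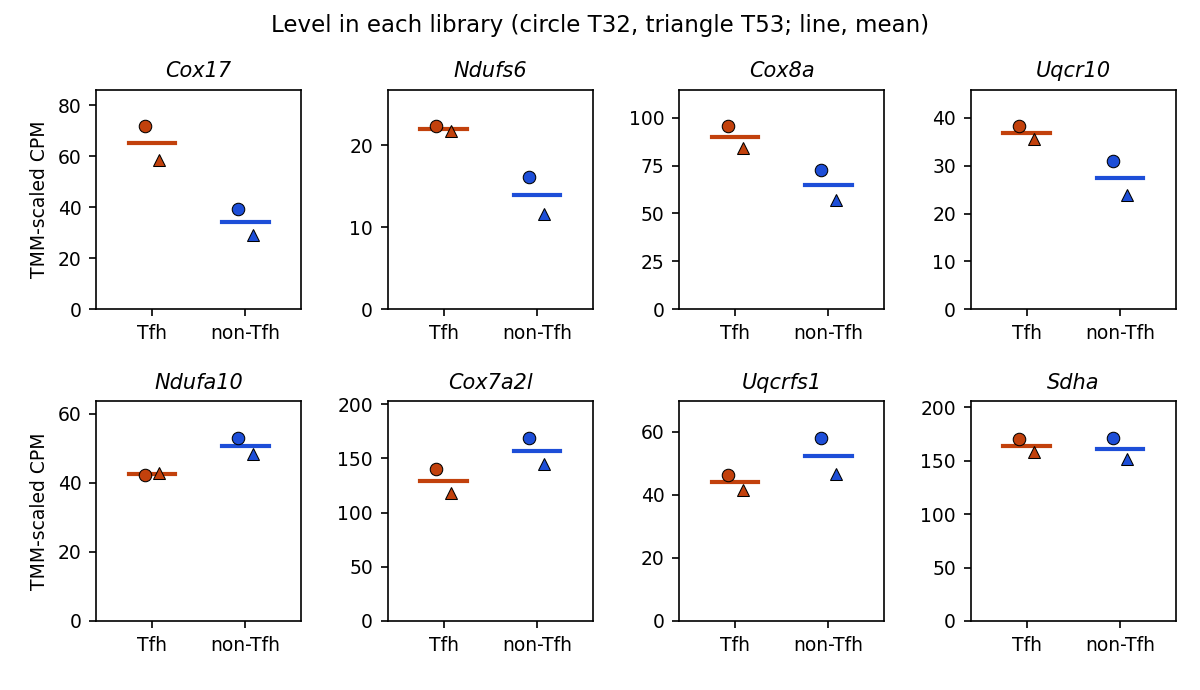
TMM-scaled CPM (y axis, from 0) of 8 members in each library, with Tfh libraries in orange and non-Tfh libraries in blue, circles for T32, triangles for T53 and lines for group means. The Tfh points lie above the non-Tfh points for Cox17, Ndufs6, Cox8a and Uqcr10, below them for Ndufa10, Cox7a2l and Uqcrfs1, and among them for Sdha.

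ATP synthase held the most abundant members. The catalytic beta subunit Atp5b had a mean of 222 CPM per kb, the highest of the tested members, and the alpha subunit Atp5a1 had 166 CPM per kb. Atp5b had 435 and 404 CPM in Tfh libraries and 479 and 383 CPM in non-Tfh libraries, and Atp5a1 had 418 and 410.3 CPM against 459 and 356 CPM. For both genes the Tfh libraries fell between the non-Tfh libraries, with log2 fold changes of -0.04 ± 0.15 and 0.02 ± 0.16 (SE). Of the 5 genes of F1, the part that makes ATP, 4 had fitted changes above 0, with a median of 0.13. Of the 12 genes counted with Fo, the part with the proton channel, and the outer stalk that joins it to F1, 11 did, with a median of 0.08. The central stalk genes Atp5c1, Atp5d and Atp5e are counted with F1.

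Fo contains a ring of c subunits, encoded by 3 nuclear genes for the same mature protein. Atp5g3, taken as an abundant member, had 115 and 108 CPM per kb in Tfh libraries and 109 and 86.7 CPM per kb in non-Tfh libraries. The 2 other genes of this family were chosen after their values were seen. Atp5g2 had 37.6 and 39.2 CPM per kb in Tfh libraries and 32.1 and 32.02 CPM per kb in non-Tfh libraries, and Atp5g1 had 8.08 and 7.57 CPM per kb against 8.40 and 6.97 CPM per kb. Atp5g3 was the highest of the 3 per kilobase in each library. The order of the 2 others turned on length: the principal transcript has 4715 bases for Atp5g1 and 731 for Atp5g2, and before division by length Atp5g1 had 38.1 and 35.7 CPM in Tfh libraries and 39.6 and 32.9 CPM in non-Tfh libraries, above Atp5g2 in each. None passed the test, with log2 fold changes of 0.18 ± 0.15 for Atp5g3, 0.26 ± 0.14 for Atp5g2 and 0.03 ± 0.15 for Atp5g1 (SE). Atp5h, the stalk subunit d, had 95.3 and 82.2 CPM in Tfh libraries and 91.1 and 77.4 CPM in non-Tfh libraries.

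The 13 members that were not tested were 8 isoforms known from other tissues or conditions and the 5 processed pseudogenes. Cox4i2, Cox6a2, Cox7b2, Cox8b, Cox8c, Ndufa4l2 and the pseudogenes Cox20b, Cox6c2 and Ndufs6b had 0 counts in all libraries, which allows up to 0.252 and 0.525 CPM in the Tfh libraries and 0.224 and 0.338 CPM in the non-Tfh libraries (3 counts, counting error only). Cox7a1, the heart and muscle isoform, had 2 and 3 counts in Tfh libraries and 1 and 0 in non-Tfh libraries, and Cox6b2, the testis isoform, had 2 and 0 counts against 3 and 0. The pseudogenes Ndufa11b and Ndufb4c had at most 4 counts in a library. No difference in these isoforms was detectable at this depth.

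The fitted change was also set against transcript length. The shorter 47 tested members, of 366 to 931 bases, had a median log2 fold change of 0.18, with 42 above 0, and the longer 47, of 955 to 4798 bases, a median of 0.07, with 36 above 0. Among all tested protein-coding genes up to the members' median length of 943 bases, 551 genes had a median of 0.05 and 54.8% were above 0, and 10068 longer genes had a median of -0.0042 with 49.5% above 0. Across the 94 members, which share the 4 libraries, the rank correlation of fold change with length was -0.34 (Spearman; Pearson -0.22 with log2 length). Across 10619 protein-coding genes the rank correlation was -0.04. The part of length in the members' differences was not tested.

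**Figure D4:**
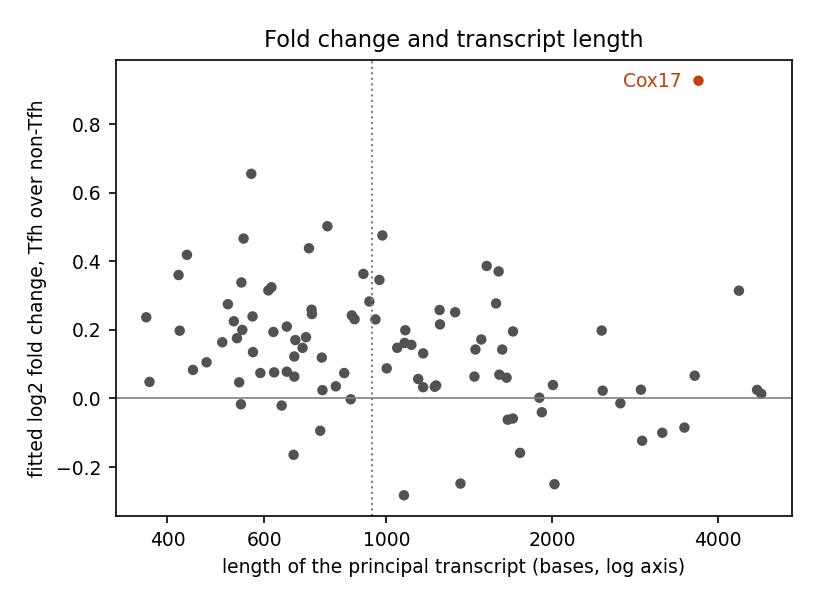
Fitted log2 fold change of Tfh over non-Tfh cells (y axis) against the length of the principal transcript in bases (x axis, log scale) for the 94 tested members, 1 point each. The dotted line marks the median length of 943 bases and the solid line marks no change. The shorter members have a median of 0.18 and the longer ones of 0.07. Cox17, in orange, has the highest fold change and, by annotation, a long principal transcript. Which transcript form of Cox17 the reads came from was not tested.

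Near-identical copies elsewhere in the genome can draw reads from these genes. A copy of at least 97% identity over at least 75 bases was found for 20 of the 94 tested members (21.3%), Cox7a2l, Ndufaf7, Atp5h, Atp5g1, Atp5g2, Cox20 and Ndufs3 among them, and none for Cox17, Ndufs6, Cox8a or Uqcr10, though the overlapping Gm21987 shares sequence with Cox17. The copies counted in the files held 548 counts in all, 310 of them on copies of Atp5g2, and how the counting treated reads that map to several places is not given in the sources used here, so values of these 20 members are less certain. Their median log2 fold change was 0.08, against 0.17 for the 74 members without a copy.

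Respiratory chain genes are known targets of NRF1 and of the ETS-family factor GABP (also called NRF-2), and some of YY1. The 250 bases before the transcription start were therefore searched on both strands for the palindrome of NRF1 (GCGC, any 2 bases, GCGC), for CCGGAAG (ETS) and for AAGATGGC (YY1); RefSeq promoters of GRCm38.p6 were at hand for 77 of the 94 tested members, Cox17 not among them. The NRF1 letters were found in 15 of 77 members (19.5%), against 5.09% of all promoters and 11.6% of those of tested genes. The ETS letters were found in 16 (20.8%), against 7.05% and 15.6%, and the YY1 letters in 1 (1.30%), against 1.59% and 2.30%. The 28 members with at least 1 of the 3 had a median log2 fold change of 0.11 and the 49 without any had 0.16. A match describes the letters in this window and not binding. To show what such windows look like, 4 promoters are given 5′ to 3′ with matches in capitals. Cox8a (chr19:7217617-7217866, minus strand) and Uqcr10 (chr11:4704345-4704594, minus strand) are members with an unadjusted p under 0.05 and hold no match. Ndufs6, another such member, is not shown and holds 1 NRF1 match. Cox10 (chr11:64079473-64079722, minus strand), with both Tfh libraries below both non-Tfh libraries, holds 1 ETS match. Sdhd (chr9:50603850-50604099, minus strand), the complex II membrane anchor, was chosen after the matches were seen. It holds an NRF1 and an ETS match, the second on the opposite strand.
Cox8a: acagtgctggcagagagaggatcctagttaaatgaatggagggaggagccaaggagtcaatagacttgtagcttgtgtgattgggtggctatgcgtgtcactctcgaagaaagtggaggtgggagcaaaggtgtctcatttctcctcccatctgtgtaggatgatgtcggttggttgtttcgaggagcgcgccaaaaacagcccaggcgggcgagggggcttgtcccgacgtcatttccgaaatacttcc
Uqcr10: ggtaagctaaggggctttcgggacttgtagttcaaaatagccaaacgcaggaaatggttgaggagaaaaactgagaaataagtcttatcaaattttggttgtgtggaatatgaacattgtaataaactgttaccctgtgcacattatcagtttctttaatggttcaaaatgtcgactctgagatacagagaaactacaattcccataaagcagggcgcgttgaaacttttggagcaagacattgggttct
Cox10: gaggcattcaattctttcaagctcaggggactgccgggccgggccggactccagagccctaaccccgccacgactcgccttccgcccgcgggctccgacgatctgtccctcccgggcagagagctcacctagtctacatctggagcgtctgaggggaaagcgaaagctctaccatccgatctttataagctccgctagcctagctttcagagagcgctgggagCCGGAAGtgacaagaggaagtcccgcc
Sdhd: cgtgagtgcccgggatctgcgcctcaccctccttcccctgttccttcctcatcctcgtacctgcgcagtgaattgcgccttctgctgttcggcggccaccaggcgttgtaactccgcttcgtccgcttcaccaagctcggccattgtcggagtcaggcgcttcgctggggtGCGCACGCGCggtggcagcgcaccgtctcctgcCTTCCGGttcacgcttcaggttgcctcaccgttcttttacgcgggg

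Sdhd, with both kinds of match, had 43.6 and 37.3 CPM in Tfh libraries and 45.7 and 33.1 CPM in non-Tfh libraries, so its groups overlapped (log2 fold change 0.04 ± 0.19 SE).

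Genes that work with the members but lie outside the name rule were read in the same fit. Of 43 tested further assembly factors and electron carriers of the chain, 13 tested coenzyme Q synthesis genes, 18 TCA cycle genes and 10 tested adenine nucleotide and phosphate carriers, 0 passed the edgeR test in either direction, with median log2 fold changes of 0.09, 0.03, 0.04 and -0.0016. With 1 library left out these medians were 0.0073 to 0.21 for the assembly factors, 0.06 to 0.15 for coenzyme Q synthesis, -0.09 to 0.13 for the TCA cycle and -0.06 to 0.16 for the carriers, the lowest without non-Tfh T53 and the highest without non-Tfh T32 except for coenzyme Q synthesis. The carrier list also holds the channel genes Vdac1, Vdac2 and Vdac3 and the uncoupling protein gene Ucp2. Counted among the assembly factors are the subunit genes Cyc1 and Usmg5. At an unadjusted p under 0.05 there were 2 higher and 0 lower among the assembly factors. The coenzyme Q genes had 1 higher, Coq8a, and 1 lower, Coq2, and the 2 other lists had 0. Coq2, named here after its values were seen, had 16.9 and 19.4 CPM in Tfh libraries and 26.3 and 28.9 CPM in non-Tfh libraries. Its log2 fold change was -0.61 ± 0.16 (SE), with an edgeR adjusted p of 0.0689. DESeq2 called 1 of these genes, Coq8a of coenzyme Q synthesis, named here after its values were seen, with 16.5 and 40.0 CPM in Tfh libraries and 7.08 and 8.67 CPM in non-Tfh libraries; limma-voom called 0. The most abundant of these lists were Coa5 with 101 and 96.2 CPM in Tfh libraries and 112 and 104 CPM in non-Tfh libraries, Coq9 with 24.7 and 26.9 CPM against 23.9 and 17.3 CPM, Ogdh with 177 and 199 CPM against 163 and 162 CPM, and Ucp2 with 461 and 470.1 CPM against 422 and 417 CPM. Of 19 tested mitochondrial biogenesis factors, 1 passed, Pprc1, a coactivator related to PGC-1, which fell to 39.8 and 37.8 CPM in Tfh libraries, against 54.4 and 67.4 CPM in non-Tfh libraries (log2 fold change -0.65 ± 0.15 SE; edgeR adjusted p = 0.0491). The call was lost when any of Tfh T32, Tfh T53 and non-Tfh T53 was omitted (adjusted p = 0.137, 0.215 and 0.125), in limma-voom (0.0661), with a filter of 5 CPM in 2 libraries (0.0538), with non-robust dispersions (0.0535) and with totals that left out mitochondrial and the 10 most abundant genes (0.0521). Fitted changes were above 0 for 4 of these 19 factors, with a median of -0.17, which was -0.08 without non-Tfh T53 and -0.23 without non-Tfh T32.

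Of the 13 subunits encoded in the mitochondrial genome, 12 were tested and 0 passed in edgeR, DESeq2 or limma-voom, with 1 higher at an unadjusted p under 0.05 in edgeR. All 12 had fitted changes above 0, with a median of 0.25, which was 0.24 to 0.30 with 1 library left out. Their summed level was 17747 and 18199 CPM in Tfh libraries and 15606 and 15243 CPM in non-Tfh libraries, so that these groups did not overlap, whereas those of the nuclear-encoded sum did. The most abundant, mt-Co1, a core subunit of complex IV, had 7490 and 7623 CPM in Tfh libraries and 6773 and 6522 CPM in non-Tfh libraries (log2 fold change 0.18 ± 0.15 SE; edgeR adjusted p = 0.569).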

How the data were processed

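Sorted mouse T cells gave 4 stranded total RNA libraries, sequenced as paired reads. The authors deposited raw counts by Ensembl gene identifier, without normalization. GRCm38 (mm10), TopHat2, Bowtie2 and HTSeq are named in the submitters' processing notes. Versions, annotation release, strand setting and the treatment of reads mapping to several places are not given in the sources used here. Library totals were 5725358 to 13360563 counts. Symbols, positions and principal transcript lengths were taken from GENCODE vM21 (GRCm38), where 37607 identifiers were found; the other 1572 were kept in the totals.

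Counts were tested over the whole table in R 4.3.3 with edgeR 4.0.16 (filterByExpr, TMM scaling, robust quasi-likelihood fit with the group alone, 2 residual degrees of freedom, two-sided, Benjamini-Hochberg adjustment over 11702 genes at 0.05). The SE of a log2 fold change is its size over the square root of F, and 95% intervals use the fit's degrees of freedom. Levels per kilobase divide CPM by the principal transcript length. Tissue isoforms and copies under the count filter were not tested. Members and gene lists were chosen with earlier results of these data known. Genes named were those that passed, the 2 most abundant per kilobase in each class, and the 5 largest non-overlapping changes in each direction. Cox14, Atp5s, Sdhd, Atp5g1, Atp5g2, Coq8a and Coq2 were named after their values were seen. Another gene that the rule took is not reported here. Alternatives were other scalings, DESeq2 1.42.0, limma-voom (limma 3.58.1), other count filters, a block for the library number, library totals without the 10 most abundant and the mitochondrial genes, and the omission of each library. The fit was tested on simulated data. Python 3.11.15 was used for summaries and figures.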

Additional observations from a re-analysis of the deposited data

How the results depend on the processing

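Over 13 alternatives, 0 members were called lower in each. The count of members called higher, 1 in the reported fit, was 3 with no count filter and 3 with the replicate block (Cox17, Ndufs6 and Cox8a both times), and 0 to 2 with 1 library left out. All genes called higher were 1006 with no filter and 1067 with the block, and all genes called lower 980 and 1049; with 1 library left out, 298 to 454 genes were called higher and 247 to 438 lower, the lowest counts without Tfh T53. The members' median log2 fold change was -0.0035 to 0.31 with 1 library left out, the lowest without non-Tfh T53 and the highest without non-Tfh T32, and 0.14 to 0.15 under the RLE and upper-quartile scalings. Cox17 had log2 fold changes of 0.73 to 1.18 with 1 library left out and was not called when either Tfh T32 or non-Tfh T53 was omitted (adjusted p = 0.123 and 0.0509). A left-out library leaves 1 in its group, which is then assumed to vary like the other group. Ndufs6 and Cox8a passed with no filter (adjusted p = 0.0206 and 0.0189) and with the block (0.0372 and 0.0165), and Ndufs6 without non-Tfh T32 (0.0489). Deviations of libraries with the same number correlated at 0.37 over all genes, and the labels do not say that the numbers pair libraries. The block fit had 14 members higher and 3 lower at an unadjusted p under 0.05. Calls over all genes also rose in that fit, and the share of all genes at this threshold is not given here. These 2 counts are therefore not read as particular to the members. With the block, 2 of the 12 mitochondrially encoded subunits were called higher (8 at an unadjusted p under 0.05). The block fit also called 1 coenzyme Q gene higher, 1 lower and 1 carrier lower. The coenzyme Q and carrier counts were equal with no filter. Calls over all genes rose in both fits, so these counts are not read as particular to the lists either. Of 325 values for named members under the alternatives, 312 kept direction and side of the threshold or moved by less than the spread. Of the called values, 0 changed sign. These values cover 25 members, of which only Cox17 passed in the reported fit. Of 117 class medians under the alternatives, 24 were counted as moved. The cause of these changes was not tested. The 2 libraries per group limit the precision of each value.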
